A study of Mus musculus with 5 samples.

Results

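Genes that move phosphate and pyrophosphate across membranes, or that bind and shape bone mineral, were examined in hematopoietic stem cells (HSCs) sorted from the bone marrow of mice at 3 weeks of age. The group holds 8 genes of the 55335 in the deposited table, chosen by name: Ank, Slc20a1, Slc20a2, Xpr1, Enpp1, Alpl, Spp1 and Ptn. It was put together with the values in view, because Ank, Slc20a2, Spp1 and Ptn were higher in both mutant libraries. The genotype differences of the 8 genes are therefore given as a description, without a test.

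HSCs were Lin- Kit+ Sca-1+ CD48- CD150+ cells, and the data are TPM (transcript levels scaled by length and to a common total per library) in 5 libraries. The 3 control libraries came from wild-type mice, and the 2 libraries labelled RankCre-ki, called the mutant-labelled libraries below, came from mice with Cre knocked into 1 allele of Rank (Tnfrsf11a) and with 1 floxed and 1 null allele of Csf1r. All mice are labelled C57BL/6J, whereas the study's methods state that the Csf1r null line was kept on C3H/HeJ. Per the study, Rank-driven Cre acts in embryonic macrophages and not in HSCs, the mutants lack these macrophages and osteoclasts and are osteopetrotic, and the question was what changes in the transcripts of HSCs in their absence. The Csf1r null allele, by contrast, is carried by every cell of the mutants, HSCs included. Nothing in the labels says which animals the libraries came from, so the spread between libraries may be technical in part.

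Some facts of the libraries touch every value below. Csf1r was listed at 2.39, 0 and 0.234 TPM across the wild-type libraries, against 17.5 and 6.46 TPM in the mutant-labelled pair, higher in the group that carries a null allele, so that group is named by its label throughout. Tnfrsf11a, which carries the Cre, read 2.08, 0.360 and 0.0806 TPM in wild-type against 0.0811 and 1.47 TPM, which overlap. RankCre-ki replicate 2 is labelled female but held 62.5 TPM of the Y-linked Eif2s3y and 0.0229 TPM of Xist, which is what wild-type replicate 1, labelled male, also showed (41.6 and 0.0273 TPM). These 2 libraries share one series of library names (name series 1), the other 3 libraries making up name series 2. At least 1 TPM was reached by 9021 to 11084 genes across the wild-type libraries and by 12801 and 16386 genes in the mutant-labelled pair, and the median log2 difference of all 13981 tested genes was 0.52. All 15 HSC markers of a fixed list, Kit, Ly6a and Slamf1 among them, reached the filter for testing. Sequencing depth is not recorded in TPM, and a listed 0 need not mean that a transcript was absent. Of 30 genes that every cell uses, chosen after the files were seen, Ercc3 was at 0 in wild-type replicate 3. None of the 30 was at 0 in any other library. Whether that 0 was a failed estimate was not tested.

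Inorganic phosphate enters cells through the sodium-coupled importers Slc20a1 (PiT-1) and Slc20a2 (PiT-2) and leaves through the exporter Xpr1. Pyrophosphate blocks the growth of mineral crystals. It is made outside the cell by Enpp1 from ATP, its release from the cell depends on the membrane protein Ank (ANKH in human), and it is split by the phosphatase Alpl, whose activity allows bone to mineralize. Spp1 (osteopontin) is a secreted acidic protein that binds mineral and integrins and is known as a constraint on HSC number in the bone marrow niche, and Ptn (pleiotrophin) is a secreted heparin-binding factor known to act on HSCs.

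The genes lie on 8 different chromosomes and all are protein-coding in GENCODE M21 (GRCm38, the build called mm10). RefSeq promoter windows of the same build were found for 7 of the 8 genes, and Slc20a2 was not matched. The 250 bases before the RefSeq start, which need not be the GENCODE gene start, differ widely in composition. In Ank, 81.2% of these bases are G or C, with 49 CG dinucleotides, against 43.6% and 3 in the first window of Spp1 and 52.0% and 5 in Ptn, where the quartiles over 32851 windows are 45.2% and 61.2% for G or C and 2 and 16 for CG. The sequences of Ank, Spp1 and Ptn are shown because these are genes whose 2 groups of libraries do not overlap and whose promoter types differ. Capitals mark the matches to 6 motifs searched on both strands. The AP-1 motif was searched as TGANTCA and the cyclic AMP response element (CRE) as TGACGTCA. For RUNX factors the letters TGTGGT were used, and for the E-box of bHLH factors the letters CACGTG. The TATA box was read as TATAAA, and an Sp1 match as the letters GGGCGG. Matches of different motifs do not overlap in the windows shown. Each window is written 5′ to 3′ on the strand of the gene. That of Ptn stops before the first annotated exon base, so 209 of its 250 bases are shown, while its composition above is that of all 250.
Ank, chr15:27466427-27466676, plus strand: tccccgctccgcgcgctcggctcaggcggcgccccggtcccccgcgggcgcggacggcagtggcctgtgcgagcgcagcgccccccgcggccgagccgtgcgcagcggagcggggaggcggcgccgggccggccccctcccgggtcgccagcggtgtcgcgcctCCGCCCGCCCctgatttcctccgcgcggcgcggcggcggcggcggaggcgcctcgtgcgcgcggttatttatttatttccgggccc
Spp1, chr5:104434861-104435110, plus strand: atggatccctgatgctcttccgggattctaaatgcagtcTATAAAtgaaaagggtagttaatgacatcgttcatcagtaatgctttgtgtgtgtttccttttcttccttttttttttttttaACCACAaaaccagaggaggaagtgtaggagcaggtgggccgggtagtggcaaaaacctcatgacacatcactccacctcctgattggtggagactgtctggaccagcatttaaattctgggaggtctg
Ptn, chr6:36810221-36810429, minus strand: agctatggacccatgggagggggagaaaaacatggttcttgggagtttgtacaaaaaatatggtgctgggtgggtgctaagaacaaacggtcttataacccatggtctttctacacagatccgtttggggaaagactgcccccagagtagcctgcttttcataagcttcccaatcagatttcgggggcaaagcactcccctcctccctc

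The Ank window holds 2 overlapping Sp1 matches, which begin at positions -86 and -82 counted from the RefSeq start, and 32.7% of all windows hold this motif. In Spp1 there is a RUNX match at -128 and a TATA box match at -211, motifs held by 14.0% and 12.4% of all windows. Ptn has none of the 6. No motif of the set is thus shared by these 3 windows. Over the full set, Sp1 matches occur in windows of Ank, Slc20a1, Xpr1, Enpp1 and Alpl. The only E-box matches, at -175 and -22, are in Slc20a1. No window of the 7 genes holds an AP-1 or CRE match.

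Ank, the protein on which pyrophosphate release depends, had the highest level of the 8 genes in both mutant-labelled libraries. Ank (ENSMUSG00000022265, chromosome 15, 27466677 to 27594909) was at 1.65, 0.0193 and 0.0981 TPM for wild-type replicates 1, 2 and 3 and at 19.1 and 17.5 TPM for RankCre-ki replicates 1 and 2. The groups do not overlap, and the lower mutant-labelled library lies far above wild-type replicate 1, the highest of the wild-type libraries. The group means differed by 3.75 ± 1.20 (SE) in log2(TPM + 1), a scale that compresses differences between low levels, and this exceeds the median of all tested genes by 3.23. The SE, here and below, comes from the fit across all tested genes and not from the spread of this gene alone. In a library of sorted cells, fewer cells with a transcript and less of it per cell cannot be told apart. In terms of rank, Ank was the 9677th, 13491st and 14097th gene of the wild-type libraries and the 5639th and 5619th of the mutant-labelled libraries. Of the genes that overlap Ank, Mir7117 shares 65 exonic bases and was listed at 0 in all libraries, and Otulin on the opposite strand shares none.

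**Figure D1:**
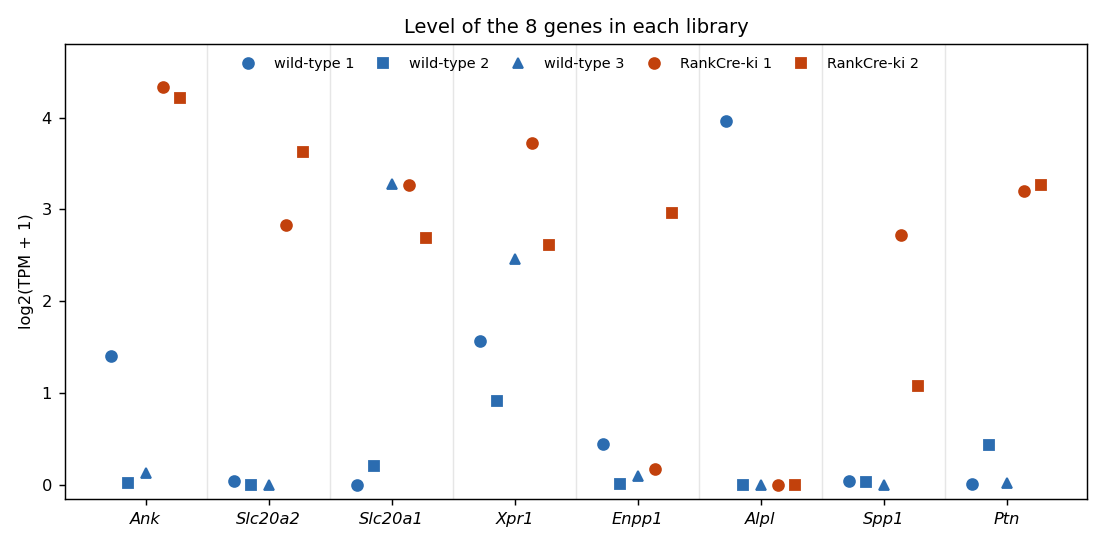
Level of the 8 genes, as log2(TPM + 1), in each of the 3 wild-type libraries (blue) and the 2 mutant-labelled libraries (orange), 1 point per library. For Ank, Slc20a2, Xpr1, Spp1 and Ptn both orange points lie above all blue points, for Slc20a1 and Enpp1 the groups overlap, and Alpl is above 0 in wild-type replicate 1 alone, at 14.6 TPM.

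The sodium-phosphate importers had different patterns. Slc20a2 (ENSMUSG00000037656, chromosome 8, 22476788 to 22569612) stood at 0.0349 TPM for wild-type replicate 1, was listed at 0 in wild-type replicates 2 and 3, and reached 6.09 and 11.3 TPM for RankCre-ki replicates 1 and 2. It was the closest of the 8 to an on-off pattern, and its log2 difference was 3.21 ± 0.86 (SE). Slc20a1 (ENSMUSG00000027397, chromosome 2, 129198764 to 129211616) was listed at 0 in wild-type replicate 1 and was at 0.157 and 8.71 TPM for wild-type replicates 2 and 3, against 8.64 and 5.43 TPM in the mutant-labelled pair. Here the highest value belonged to a wild-type library, so the groups overlap, and the log2 difference of 1.81 ± 1.40 (SE) is of the size of its error. Their summed level was 0.0349, 0.157 and 8.71 TPM across the wild-type libraries and 14.7 and 16.8 TPM in the others, of which Slc20a2 made up 41.3% and 67.6%. Both importers share exonic bases with genes on the opposite strand, and it is not stated whether counting used strand. For Slc20a2 these are 95 bases shared with Smim19, at 23.5, 6.54 and 10.2 TPM in wild-type and 23.6 and 12.4 TPM in the mutant-labelled libraries, whose groups overlap. For Slc20a1 they are 280 bases shared with Gm4430, above 0 in RankCre-ki replicate 2 alone (5.37 TPM), and 452 bases shared with 9830144P21Rik, above 0 in RankCre-ki replicate 1 alone (0.716 TPM).

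Xpr1, the phosphate exporter, was the most evenly detected member. Xpr1 (ENSMUSG00000026469, chromosome 1, 155275701 to 155417415) was at 1.96, 0.888 and 4.50 TPM across the wild-type libraries, against 12.2 and 5.09 TPM for RankCre-ki replicates 1 and 2. It was above 0 in every library, and its groups do not overlap, although wild-type replicate 3 and RankCre-ki replicate 2 are close. Its mean was 2.45 ± 1.85 TPM (SD, n = 3) for wild-type against 8.66 ± 5.04 TPM (SD, n = 2) in the mutant-labelled pair. The log2 difference was 1.52 ± 1.27 (SE), and after quantile normalization it was 0.32 with overlapping groups.

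The enzymes that make and split extracellular pyrophosphate were each detected at more than 1 TPM in a single library. Enpp1 (ENSMUSG00000037370, chromosome 10, 24637914 to 24712159) was at 0.368, 0.0111 and 0.0748 TPM across the wild-type libraries, against 0.132 and 6.80 TPM for RankCre-ki replicates 1 and 2. RankCre-ki replicate 1 thus fell within the wild-type range. Alpl (ENSMUSG00000028766, chromosome 4, 137741733 to 137796384) stood at 14.6 TPM for wild-type replicate 1 and was listed at 0 in the other 4 libraries. Neither gene reached the filter of 1 TPM in 2 libraries. Their log2 differences of 1.38 and -1.32 each rest on 1 library: Enpp1 was at -0.01 without RankCre-ki replicate 2 and Alpl at 0 without wild-type replicate 1. Alpl was the only member whose mean was lower in the mutant-labelled pair.

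Of the secreted proteins, Ptn was the more even between the mutant-labelled libraries. Ptn (ENSMUSG00000029838, chromosome 6, 36714929 to 36810220) was at 0.00921, 0.355 and 0.0154 TPM across the wild-type libraries, against 8.16 and 8.65 TPM for RankCre-ki replicates 1 and 2. The groups are far apart, and the mutant-labelled libraries differ by less than 1 TPM. Its mean was 0.126 ± 0.198 TPM (SD, n = 3) against 8.41 ± 0.346 TPM (SD, n = 2), with a log2 difference of 3.08 ± 0.89 (SE). Spp1 (ENSMUSG00000029304, chromosome 5, 104435118 to 104441050) was at 0.0318 and 0.0270 TPM for wild-type replicates 1 and 2, listed at 0 in wild-type replicate 3, and reached 5.62 and 1.12 TPM in the mutant-labelled pair. Its groups do not overlap either, but the mutant-labelled libraries differ widely, and the log2 difference of 1.88 ± 0.69 (SE) became 1.05 without RankCre-ki replicate 1 and 2.70 without RankCre-ki replicate 2. Spp1 shares 309 exonic bases with Gm42793 on the same strand, which stood at 0.590 TPM for wild-type replicate 1, at 0.148 TPM in RankCre-ki replicate 2 and at 0 in the others.

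The mutant-labelled pair exceeded every wild-type library for 5 of the 8 genes (Ank, Slc20a2, Xpr1, Spp1 and Ptn) and lay below every one for 0 of 8, where 18.8% and 3.71% of all tested genes do so. As the genes were picked on this contrast, nothing is read from these counts. Counted over all genes above 0 in any library, the shares are 14.3% and 1.91%. By the gap in TPM between the groups, closest to overlap among the 5 were Xpr1, whose lowest mutant-labelled value was 5.09 TPM against a highest wild-type value of 4.50 TPM, and Spp1, with 1.12 against 0.0318 TPM. Outside were Slc20a1, with 5.43 against 8.71 TPM, and Enpp1, with 0.132 against 0.368 TPM. The filter for testing was reached by 6 of the 8 genes, and by Xpr1 alone if the wild-type libraries are taken by themselves. The summed level of the 8 genes was 18.6, 1.46 and 13.4 TPM across the wild-type libraries and 59.9 and 55.9 TPM in those labelled RankCre-ki. Alpl made up most of the sum in wild-type replicate 1, and Slc20a1 in wild-type replicate 3.

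**Figure D2:**
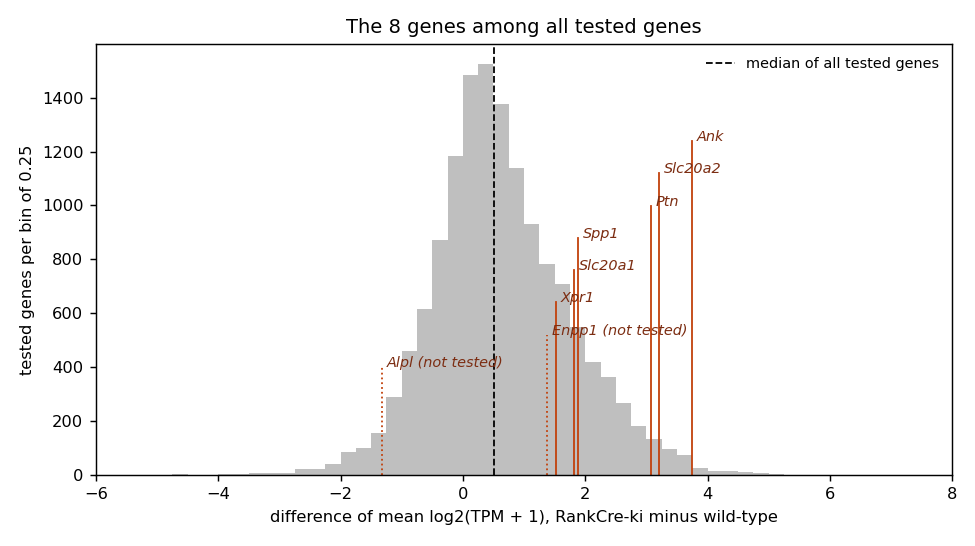
Histogram of the difference of mean log2(TPM + 1), RankCre-ki minus wild-type, over the 13981 tested genes (grey, bins of 0.25), with the 8 genes as orange lines of arbitrary height, dotted for the 2 that did not reach the filter. The dashed line is the median of all tested genes at 0.52, and of the 8 genes Ank at 3.75 lies furthest to the right.

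Apart from Ank at the top and Alpl at the bottom, the order of the levels differed between the mutant-labelled libraries. In the mutant-labelled libraries, the range of Ank (17.5 to 19.1 TPM) lay above that of every other member, whose highest value was 12.2 TPM, for Xpr1. The ranges of Slc20a2 (6.09 to 11.3 TPM), Xpr1 (5.09 to 12.2 TPM), Ptn (8.16 to 8.65 TPM) and Slc20a1 (5.43 to 8.64 TPM) overlap one another, so these neighbours do not differ beyond their spread. In wild-type, the median was highest for Xpr1 (1.96 TPM), followed by Slc20a1 (0.157 TPM), Ank (0.0981 TPM), Enpp1 (0.0748 TPM), Spp1 (0.0270 TPM) and Ptn (0.0154 TPM), with Slc20a2 and Alpl at 0. The wild-type ranges of Xpr1, Slc20a1, Ank and Alpl overlap.

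The difference was also taken within each name series, since per the study 2 tagmentation kits were used on sets of libraries of this composition. In name series 1, with 1 library of each group, the log2 difference was 2.81 for Ank, 3.58 for Slc20a2, 3.26 for Ptn, 1.04 for Spp1 and 1.04 for Xpr1. Name series 2, with RankCre-ki replicate 1 against a pair of wild-type libraries, gave 4.25 for Ank, 2.83 for Slc20a2, 2.97 for Ptn, 2.71 for Spp1 and 2.04 for Xpr1. For these 5 genes both mutant-labelled libraries lay above every wild-type library, so a positive difference in each series was fixed in advance. Nothing is read from its sign. The medians of all tested genes were 0.53 in series 1 and 0.40 in series 2, and each of the 5 lay above them. The differences were 2.69 and 1.52 for Slc20a1, 2.51 and 0.12 for Enpp1, and -3.96 and 0 for Alpl. The labels give wild-type replicate 1 as male, and sex as read from transcripts follows the name series, so sex and series cannot be told apart.

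**Figure D3:**
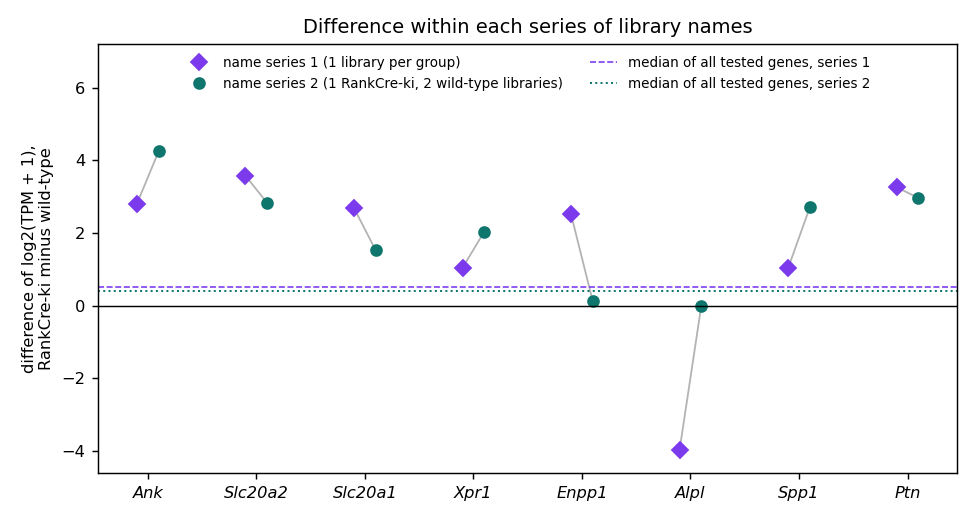
Difference of log2(TPM + 1), RankCre-ki minus wild-type, within name series 1 (diamonds, 1 library per group) and name series 2 (circles, 1 RankCre-ki library against the mean of 2 wild-type libraries), with the medians of all tested genes as dashed and dotted lines. Ank, Slc20a2, Slc20a1, Xpr1, Spp1 and Ptn lie above both medians in both series, Enpp1 is near 0 in series 2, and Alpl is at -3.96 in series 1 and 0 in series 2.

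Spp1 and Ptn are also made by cells other than HSCs, osteopontin by osteoblasts, osteoclasts and macrophages and pleiotrophin by stromal cells, so markers of these cells were set beside them. The summed level of 16 markers of mesenchymal stromal cells and osteoblasts was 5.78, 14.1 and 7.34 TPM across the wild-type libraries and 18.9 and 56.7 TPM for RankCre-ki replicates 1 and 2. Of these 16 genes 2 reached the filter. Pdgfrb, a receptor of stromal cells and pericytes, was at 0, 0 and 2.88 TPM in wild-type, with 5.17 and 3.73 TPM in the mutant-labelled pair, and these groups do not overlap. Runx2, the transcription factor of the osteoblast lineage, was at 3.04, 13.8 and 3.71 TPM, with 13.6 and 16.8 TPM in the mutant-labelled pair, and these groups overlap. In RankCre-ki replicate 2, Dcn held 32.6 TPM, Col1a2 1.83 TPM and Lepr 1.24 TPM, where the other libraries were at most at 0.121, 0.577 and 0.369 TPM. Sp7, Col3a1 and Adipoq were at 0 in all 5 libraries, Col1a1 was at most 0.0106 TPM, and the stromal chemokine Cxcl12 was at most 0.0310 TPM in wild-type and listed at 0 in both mutant-labelled libraries.

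For 15 macrophage and osteoclast markers, of which 5 reached the filter, the sum was 24.0 to 53.9 TPM in wild-type and 52.9 and 60.2 TPM in the others. Csf1r, given above, was the 1 tested marker of this list whose groups do not overlap. Ctsk, the collagen-degrading protease of osteoclasts, was at 4.73 TPM in RankCre-ki replicate 2, and Dcstamp, which osteoclasts need to fuse, at 1.84 TPM in RankCre-ki replicate 1, both at most 0.0137 TPM elsewhere. Other markers of the list had a lower mean in the mutant-labelled pair. Acp5 was at 14.8, 0 and 14.2 TPM in wild-type and 12.7 and 0 TPM in the pair. Vcam1 was at 3.18, 9.62 and 0.0377 TPM against 2.35 and 1.27 TPM. Calcr was at 2.76 TPM in wild-type replicate 1, 0.556 TPM in RankCre-ki replicate 2 and 0 elsewhere. Adgre1, C1qc and Mmp9 were at 0 in all libraries.

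Of 15 markers of lineage cells outside the sort gate 6 were tested, and for 4 of the 6 (66.7%, where all tested genes have 18.8%) both mutant-labelled libraries lay above every wild-type library. Cd48, S100a8 and Klrb1c reached the filter through the mutant-labelled pair alone. That places the pair above wild-type in advance, so nothing is read from this share. Cd48, by whose absence the cells were sorted, read 4.92 and 5.62 TPM in the mutant-labelled pair, against a listed 0 in each wild-type library. S100a8, a protein of neutrophils and monocytes, was at most 0.0677 TPM in wild-type but 8.31 and 12.9 TPM in the pair. Klrb1c, a receptor of natural killer cells, was at most 0.0516 TPM in wild-type but 4.40 and 12.8 TPM in the pair. The globin Hbb-bt was at 36.2 to 124 TPM in wild-type and 251 and 632 TPM in the pair. None of Cd48, S100a8, Klrb1c and Hbb-bt passed the limma threshold. The sum of the 15 markers was 336 to 729 TPM in wild-type and 788 and 1137 TPM in the others, most of the wild-type sum being Ptprcap, whose groups overlap, and 5 of the 15 were at 0 in all libraries. The part of any of these other cells in the levels of the 8 genes was not tested.

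Other genes of the same pathways were taken from 5 lists of 67 genes in all, of which 27 reached the filter. By limma (Benjamini-Hochberg adjusted p at most 0.1 and a log2 difference beyond 2), 0 of the 27 passed in either direction, as did 0 of all 13981 genes (0%), and the smallest adjusted p among the 27 was 0.546. The study, with a count model and the same limits, did report genes past the threshold, so these counts hold for the limma fit of TPM. At an unadjusted p under 0.05 there was 1 of 27, against 960 of all tested genes (6.34% higher and 0.529% lower). The groups did not overlap for 5 of the 27, all with the mutant-labelled libraries on top, which is 18.5% against the background of 18.8%. The median log2 difference of the 27 was 0.72, beside 0.52 for all genes, with 24 above 0 (88.9%, against 72.3% of all tested genes). With median-ratio scaling the share was 59.3% of the 27 and 57.1% of all tested genes, and when quantile normalized it was 51.9% and 48.2%.

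Among phosphate carriers and their regulators, 8 of 18 genes were tested and the median log2 difference was 0.78. Minpp1, a phosphatase that removes phosphate from inositol phosphates, was at 0.755, 0.0615 and 20.6 TPM across the wild-type libraries, against 43.3 and 99.1 TPM in those labelled RankCre-ki. Its difference of 4.28 ± 1.49 (SE) was the largest of the 27 genes and did not pass the test (limma p of 0.0207, adjusted p of 0.546). Ip6k1, a kinase that makes inositol pyrophosphates, was at 0.329, 4.63 and 17.8 TPM against 20.8 and 17.8 TPM, with a limma adjusted p of 0.906. Fgfr1, a receptor of the phosphate hormone Fgf23 in kidney, was at 0.296 to 1.64 TPM against 2.10 and 4.02 TPM, with a limma adjusted p of 0.932. The mitochondrial phosphate carrier Slc25a3, chosen for comparison after its values were seen, was far above all 8 members at 304, 326 and 511 TPM in wild-type and 576 and 476 TPM in the others, and these groups overlap. Of the kidney-type importers, Slc34a1 and Slc34a3 were at 0 in all libraries and Slc34a2 was at most 0.0203 TPM.

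The list of pyrophosphate and nucleotide enzymes and channels had 8 of 17 genes tested, with a median of 0.97. Adora2a, an adenosine receptor, was at 0.172, 0 and 6.73 TPM in wild-type and 7.75 and 11.2 TPM in the mutant-labelled pair, with a limma adjusted p of 0.881. Ppa1 and Ppa2, the intracellular pyrophosphatases (named after their values were seen), summed to 136, 313 and 286 TPM in wild-type and 324 and 109 TPM in the others, which overlap. Phospho1, the phosphatase that starts mineral formation in matrix vesicles, was at 3.03 TPM in RankCre-ki replicate 1 and at 0 elsewhere. Abcc6, which drives ATP release in the liver, was at 0.311 TPM in RankCre-ki replicate 2 and at 0 elsewhere.

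None of the 12 mineral-binding matrix proteins reached the filter, and 4 of them were at 0 in all libraries. The relatives of Spp1 in the same gene family, Ibsp, Dmp1, Dspp and Mepe, were at most 0.225 TPM, and Dspp and Mepe were at 0 throughout. Spp1 was thus the single member of this family above 1 TPM in any library.

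Cd44 and Itgb1, which bind Spp1, were above Spp1 in each of the 5 libraries. Of 10 osteopontin receptors 7 were tested, and their median log2 difference was 0.74. Cd44 had a median of 18.0 and a highest value of 32.8 TPM in wild-type, against 27.0 and 27.6 TPM in the mutant-labelled pair, and the integrin chain Itgb1 was at 31.5, 24.4 and 85.3 TPM against 71.5 and 77.3 TPM (both named after their values were seen). The groups overlap for both. Itga5, the integrin chain of the fibronectin receptor, was at 3.97, 1.18 and 2.19 TPM against 11.3 and 7.05 TPM, a log2 difference of 1.61 ± 1.24 (SE) with a limma adjusted p of 0.916. Of the pleiotrophin relative Mdk and 9 receptors, 4 were tested, with a median of 0.20. The phosphatase Ptprs was at 10.7, 1.37 and 8.32 TPM in wild-type and 6.05 and 6.03 TPM in the others, while Ptprz1, the receptor best known for Ptn, was at most 0.162 TPM in wild-type, against 0.0262 and 1.80 TPM in the others (both named after their values were seen).

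**Figure D4:**
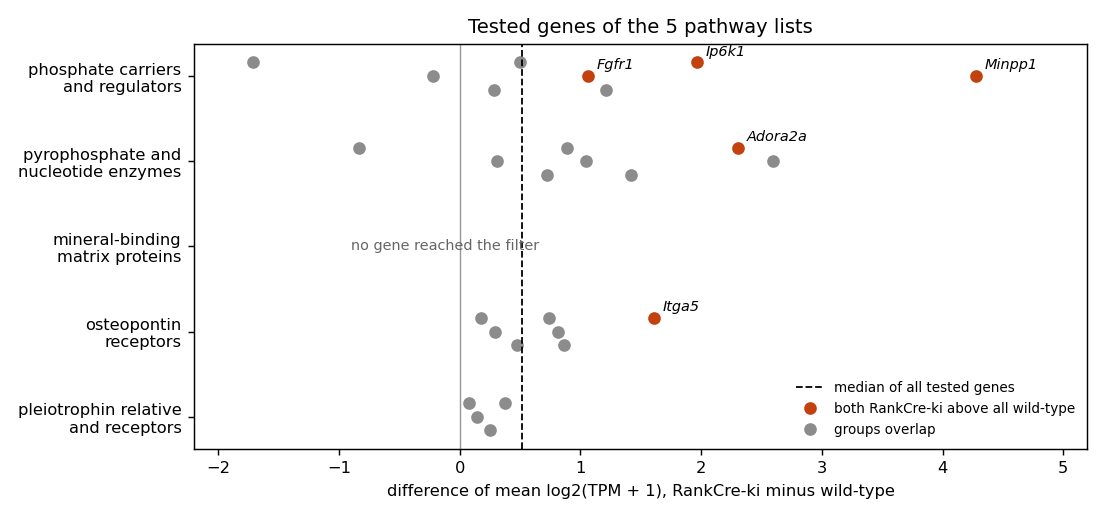
Difference of mean log2(TPM + 1), RankCre-ki minus wild-type, for the 27 tested genes of the 5 pathway lists, 1 point per gene, orange where both RankCre-ki libraries lie above all wild-type libraries and grey where the groups overlap. The dashed line is the median of all tested genes (0.52), and Minpp1 at 4.28 is furthest to the right.

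The genes most like Ank and Slc20a2 over the 5 libraries were found by the Euclidean distance between log2(TPM + 1) profiles centred on their means. Nearest to Ank were Ubald1 (distance 0.66), Tfeb (0.72), Galnt11 (0.74), Rhbdd1 (0.88) and Qsox1 (0.95). Tfeb, a transcription factor of lysosome genes, was at 1.19, 0 and 0 TPM in wild-type and 10.3 and 10.2 TPM in the mutant-labelled pair. Nearest to Slc20a2 were Sult2b1 (0.10), Gm19680 (0.14), Gm32051 (0.15), Gm16191 (0.19) and Cstad (0.22), each at most 0.0858 TPM in wild-type. By the same measure Slc20a2 and Ptn were the 72nd and 127th nearest genes to Ank, at 1.36 and 1.51, and Ptn was the 64th nearest to Slc20a2, at 0.65. Spp1 was the 825th nearest to Ank and Xpr1 the 1431st, and Slc20a1 was the most distant of the tested members, at order 4386. With 5 libraries many genes share such a profile, and the distances describe these libraries only.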

How the data were processed

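The authors deposited TPM per gene for each library, in 55427 rows. The columns were matched to the samples by the names in the labels, and 92 spike-in rows at 0 were removed. Per the study, 80 to 90 cells were sorted per library (numbers in the library names), cDNA was made by a full-length poly(A) protocol, and reads were aligned to mm10 with gsnap and counted with featureCounts 2.0.1. The tool behind the TPM is not given in the sources used here. Of the values above 0, 179 are below 1e-06 TPM and cannot come from whole fragments, so paralogs and overlapping genes can exchange signal. TPM holds no depth, so no counting interval was given.

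Values were set to log2(TPM + 1). Genes that reached 1 TPM in 2 or more libraries were fitted with limma 3.58.1 in R 4.3.3 (eBayes with trend, 3 wild-type against 2 RankCre-ki libraries, no covariate, Benjamini-Hochberg over all tested genes). The threshold was an adjusted p of at most 0.1 and a log2 difference beyond 2, as in the study. TPM are not counts, so no count model was used. The code was tested on simulated data. SDs cover the spread between libraries. SEs are those of the limma fit, in which the variance of a gene is drawn toward the trend over all tested genes. They can therefore be larger or smaller than the spread of the gene's own values gives.

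The 8 genes and all lists were chosen with earlier results of these data known. Besides the 8 genes, the text names the genes of the engineered alleles, genes that check the sex labels, up to 4 non-overlapping genes with the largest difference per pathway list, and the 5 nearest profiles. Marker, overlapping and list genes at or near 0 are named beside the result they touch, and other names are marked. Of the gene identifiers, 99.7% were found in GENCODE M21.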

Additional observations from a re-analysis of the deposited data

How the results depend on the processing

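Of the 8 genes, 5 lay above all wild-type libraries as deposited, 5 after median-ratio scaling and after removal of mitochondrially encoded genes, 5 to 6 when 1 library was left out (where the share of all tested genes doing so was 24.2% to 34.8%, against 18.8% with all libraries), and 3 (Ank, Slc20a2 and Ptn) after quantile normalization, which also put Alpl below because it spreads values of 0 by library. The median log2 difference of the 8 was 1.85, 3.99 with a pseudocount of 0.1 TPM, 0.85 after quantile normalization and 1.61 to 2.40 when 1 library was left out. The differences of Ank, Slc20a1, Slc20a2, Xpr1, Spp1 and Ptn were above 0 under all 11 alternatives run for them. Without RankCre-ki replicate 2, whose transcripts go against its sex label, they were 3.80, 2.11, 2.81, 2.08, 2.70 and 3.04. The median of all tested genes moved from 0.52 to 0.16 after median-ratio scaling and to -0.04 after quantile normalization, and the share of tested genes above all wild-type libraries moved to 12.2% and 11.96%. With the replicate block 1 of all genes passed the threshold, which was none of the 8, and Ank stood 2.90 above the median of all genes. The replicate numbers do not pair the libraries, whose deviations correlated at -0.380 and -0.195. Over all genes, 0 to 17 passed the threshold when 1 library was left out, with 17 without RankCre-ki replicate 1 and 8 without RankCre-ki replicate 2. There the lone library is assumed to vary like the wild-type libraries, and the cause was not tested. Of the pathway genes 0 passed in each of the 15 alternatives, which tested between 20 (at least 5 TPM) and 55 (no filter) of them.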
